A study of Mus musculus with 3 samples.

Results

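Aggrecan, versican, the hyaluronan genes and the proteases that cut these proteoglycans were followed across the cells of the mouse ascending aorta. The 9 genes were *Acan*, *Vcan*, *Hapln1*, *Has1*, *Has2*, *Cd44*, *Adamts1*, *Adamts4* and *Adamts5*, of 32285 genes in the files, and all 9 were found by symbol in each of the 3 libraries. They were chosen by name, with *Acan* already known from these data to be higher in the smooth muscle cells (SMCs) of the mutant, so the *Acan* values in SMCs are a description and support nothing. Single-cell suspensions were made from male C57BL/6J mice at P45. The first library came from 3 pooled WT mice and the second from 3 pooled mice homozygous for the hypomorphic fibrillin-1 allele mgR (Fbn1mgR/mgR), a model of Marfan syndrome in which every cell carries the mutation. The third, mgR-LOS, came from 4 pooled Fbn1mgR/mgR mice that drank losartan, a blocker of the angiotensin II type 1 receptor, at 0.6 g/L from P16. The labels do not say whether the mgR mice of the second library drank vehicle. With 1 pooled library per group no difference below has a replicate check, and each interval covers counting error only.

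The large aggregating proteoglycans consist of a protein core that carries chondroitin sulfate chains and binds hyaluronan at its N-terminal end. Aggrecan is the main one of cartilage, where its fixed charge holds water under load, and versican is the one usually named in artery and heart valve. Link protein (*Hapln1*) locks the core to hyaluronan, which the synthases of *Has1* and *Has2* extrude at the plasma membrane and which cells hold through the receptor CD44. The metalloproteases ADAMTS1, ADAMTS4 and ADAMTS5 cleave both cores, and accumulation of proteoglycan between the elastic lamellae is a known lesion of the aneurysmal thoracic aorta.

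In the GRCm38 annotation of GENCODE release M21, *Acan* lies on chromosome 7 from 79053483 to 79115099 on the plus strand. *Vcan* and *Hapln1* are neighbors on chromosome 13, 43.7 kb apart on opposite strands, and *Adamts1* and *Adamts5* are neighbors on chromosome 16, 53.1 kb apart on the same strand. The RefSeq promoter table for GRCm38.p6 held windows for 6 of the 9 genes, *Acan*, *Vcan*, *Hapln1*, *Has1*, *Cd44* and *Adamts1*. The 250 bases before the start annotated in RefSeq are shown for a few genes, so that their letters can be compared. These are *Acan*, past 1.5-fold between libraries over all SMCs, *Vcan*, within 1.5-fold there, and *Adamts1*, a protease higher in mutant fibroblasts. The windows are *Acan* chr7:79052976-79053225 on the plus strand, *Vcan* chr13:89742513-89742762 on the minus strand and *Adamts1* chr16:85803114-85803363 on the minus strand, each written 5′ to 3′. The *Acan* window ends at 79053225, upstream of the GENCODE start at 79053483, so it does not adjoin that start. Capitals mark matches, on either strand, to the TATA box TATAAA, the CCAAT box CCAAT and the GC box CCGCCC. The activator protein 1 site TGANTCA, the cAMP response element TGACGTCA, the SOX site AACAAT and the palindromic SMAD element GTCTAGAC were also searched.
Acan: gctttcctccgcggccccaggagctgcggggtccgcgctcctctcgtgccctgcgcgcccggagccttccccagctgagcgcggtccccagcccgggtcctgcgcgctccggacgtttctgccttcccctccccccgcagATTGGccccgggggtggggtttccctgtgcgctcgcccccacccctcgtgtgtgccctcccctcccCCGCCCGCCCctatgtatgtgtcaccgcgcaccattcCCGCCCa
Vcan: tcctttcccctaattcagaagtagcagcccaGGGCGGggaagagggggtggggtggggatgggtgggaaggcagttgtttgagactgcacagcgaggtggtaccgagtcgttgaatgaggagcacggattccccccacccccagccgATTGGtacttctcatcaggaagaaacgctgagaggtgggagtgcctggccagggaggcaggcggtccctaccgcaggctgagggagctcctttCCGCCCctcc
Adamts1: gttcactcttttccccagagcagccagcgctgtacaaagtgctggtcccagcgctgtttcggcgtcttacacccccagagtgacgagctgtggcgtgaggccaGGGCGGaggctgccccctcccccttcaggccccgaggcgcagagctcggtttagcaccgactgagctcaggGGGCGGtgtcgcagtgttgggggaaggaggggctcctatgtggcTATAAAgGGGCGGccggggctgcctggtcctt
GC content was 74.4% in the *Acan* window, higher than in 95.4% of the 32851 windows of the table, and it was 62.4% for *Vcan* and 65.6% for *Adamts1*. *Acan* and *Vcan* each held a CCAAT box, as did 33.8% of all windows, and all 3 held GC boxes, as did 32.7%. *Adamts1* alone of the 3 held a TATA box, present in 12.4% of windows, beginning 32 bases before the start. None of these 3 windows held the activator protein 1 site (6.75% of all windows), the cAMP response element (1.55%), the SOX site (9.42%) or the SMAD element (0.167%). The search describes letters in these windows and nothing about binding.

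Barcodes passed with between 600 and 5000 genes and no more than 10% of UMIs from mitochondrial genes, which left 5361 WT, 8076 mgR and 12721 mgR-LOS barcodes with medians of 13636, 12410.5 and 8334 UMIs, so the losartan library was the shallowest. Barcodes were gated by panels of 6 marker genes each into SMC (3653 WT, 3125 mgR, 7899 mgR-LOS), fibroblast (1326, 2414, 3091) and endothelial cells (EC; 109, 216, 172), and barcodes over several gates were left out. All 6 genes of each panel were found in their own gate at 10 CPM or more (CPM, UMIs of the gene scaled to a total of 1000000) in every library. Over all kept barcodes *Fbn1* stood at 361 CPM in WT, 150.1 in mgR and 117 in mgR-LOS, the direction that the hypomorphic allele gives. The mix of cells differed as well, with SMCs at 68.1%, 38.7% and 62.1% of kept barcodes, and its part in these values was not tested. The libraries shared 22 to 46 cell barcodes pairwise, and 230, 522 and 1295 barcodes were called doublets and kept. The number called was set by library size, at 0.8% per 1000 barcodes, and does not measure a doublet rate. Levels below are CPM over the summed UMIs of the gated barcodes of a library. A gene counts as different between libraries where its ratio is at least 1.5-fold in either direction and it reaches 10 CPM in either library.

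In SMCs *Acan* separated the libraries most among these genes. *Acan* stood at 34.2 CPM in WT (95% interval 32.6 to 35.8), at 165 in mgR (162 to 169) and at 74.9 in mgR-LOS (72.9 to 77.0). The mgR level was thus the highest, the WT level the lowest, and the losartan level lay between them. The ratio was 4.83 for mgR over WT (4.59 to 5.09), 0.454 for mgR-LOS over mgR (0.438 to 0.470) and 2.19 for mgR-LOS over WT (2.08 to 2.31). SMC-gated barcodes held 83.0%, 90.8% and 92.4% of all *Acan* UMIs of the kept barcodes in WT, mgR and mgR-LOS.

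The share of SMCs with the transcript, which follows from its level in sparse counts, kept the same order. After each barcode was thinned to 1000 UMIs, 3.13% of WT, 13.8% of mgR and 6.68% of mgR-LOS SMCs held an *Acan* UMI, and without thinning the shares were 22.5%, 65.6% and 32.3%. Immune-gated barcodes, which should lack the transcript, held it at thinned shares of 0.239% in mgR and 0.393% in mgR-LOS, and in WT it was seen in 0 of 134 barcodes, which allows a share of up to 2.24%. Their median UMI counts were 8322, 7645 and 6213, against 14374, 15168 and 8521 in SMCs.

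Depth and the modulated state of SMCs moved between the libraries and were therefore set beside *Acan*. When all SMCs were divided at 8791 and 13712 UMIs, mgR over WT gave 3.72 in the shallow, 4.32 in the middle and 5.11 in the deep barcodes, and mgR-LOS over mgR was 0.510, 0.450 and 0.524. A list of modulated SMC genes (*Spp1*, *Vcam1*, *Tnfrsf11b*, *Timp1*, *Lgals3* and *Fn1*) summed to 545 CPM in WT SMCs, 2225 in mgR and 697 in mgR-LOS, mostly *Fn1*. Barcodes that scored for this list made up 1.62%, 26.3% and 3.58% of SMCs. In mgR, *Acan* stood at 166 CPM in SMCs that scored for the list and at 165 in those that did not. All of these barcodes had passed the SMC gate, and barcodes under it, modulated or not, are outside the comparison. Barcodes within 25% of the SMC threshold numbered 84 in WT, 692 in mgR and 508 in mgR-LOS. Of these, 22, 186 and 127 were gated as SMCs. Among SMCs that did not score, *Acan* was 33.5 CPM in WT, 165 in mgR and 73.0 in mgR-LOS, so the ratio of mgR over WT without the scoring barcodes was 4.92 (4.66 to 5.20). Within the scoring SMCs, of which WT had 59, *Acan* stood at 71.3, 166 and 117 CPM, and there the ratio was smaller, at 2.33 (1.84 to 2.99).

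**Figure D1:**
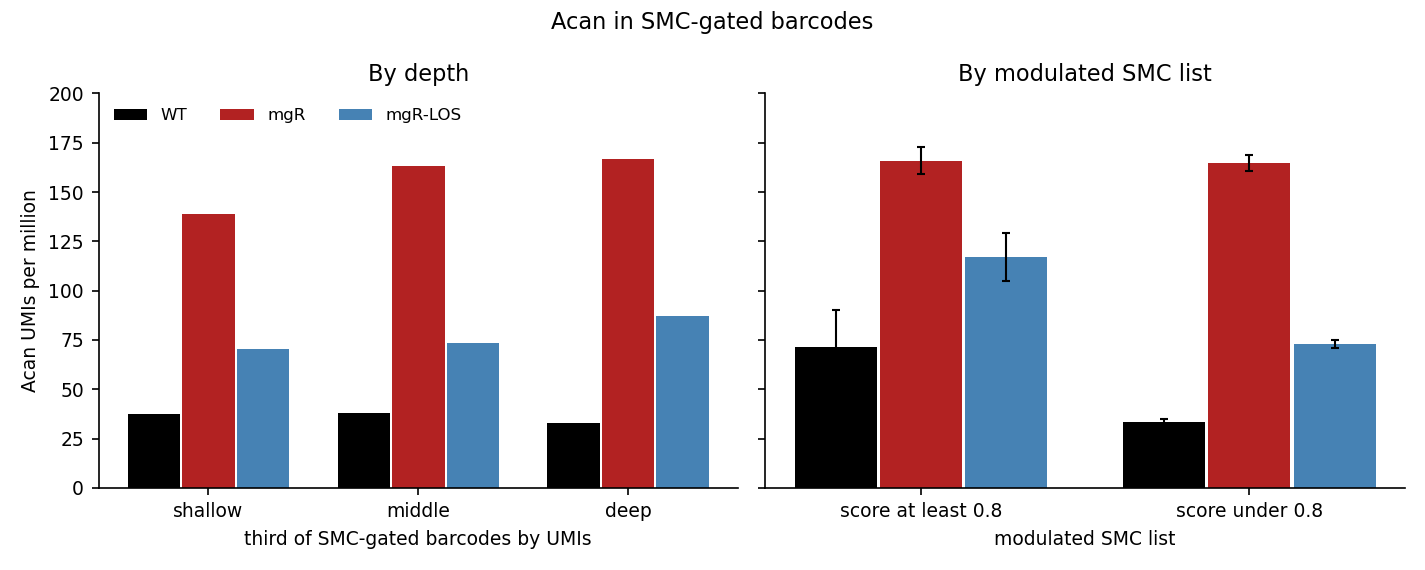
*Acan* in SMC-gated barcodes in CPM on a linear axis from 0, one bar per library (WT, mgR, mgR-LOS), by depth on the left (no error bars drawn) and by the modulated SMC list score on the right (95% Poisson intervals). The mgR bar is the highest in all 5 strata, and it is as high in barcodes that do not score for the list (165) as in those that do (166).

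The transcripts that varied most like *Acan* across mgR SMCs were *Susd5*, *Col18a1*, *Npnt*, *Thsd4* and *Serpine2*, with Pearson correlations of log-scaled counts of 0.32, 0.32, 0.26, 0.26 and 0.25 over 3125 barcodes that share 1 library. *Col18a1* encodes the basement membrane collagen that yields endostatin, and *Npnt* encodes nephronectin, a basement membrane ligand of integrins. For the same genes the correlations were 0.16 to 0.25 over 3653 WT barcodes and 0.14 to 0.27 over 7899 mgR-LOS barcodes. The genes were picked as the highest in mgR, and a smaller share of SMCs held an *Acan* UMI in the other libraries, so the values are not compared between libraries. *Col18a1* stood at 1029 CPM in WT SMCs, 1674 in mgR and 1054 in mgR-LOS. Of 8 osteochondral genes (*Sox9*, *Runx2*, *Col2a1*, *Col11a1*, *Chad*, *Comp*, *Ibsp* and *Sost*), only *Sost* reached 10 CPM in SMCs of any library, at 949, 876 and 737 CPM in WT, mgR and mgR-LOS. The other 7 stayed under that level in SMCs. Among them *Runx2*, a transcription factor of bone and cartilage, stood at 0.348 CPM in WT, 2.34 in mgR and 0.848 in mgR-LOS. These levels rest on 18, 111 and 60 UMIs. Its ratios were 6.71 for mgR over WT (4.06 to 11.7) and 0.363 for mgR-LOS over mgR (0.261 to 0.502). *Sox9* and *Chad* went the other way, at 0.741 (0.642 to 0.855) and 0.263 (0.139 to 0.468) for mgR over WT. *Col2a1* gave 10.9 (1.55 to 472) on 1 WT and 10 mgR UMIs. For *Comp*, *Col11a1* and *Ibsp* the interval included 1, so the list did not move as a set.

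*Cd44* was the other gene of the 9 that was at least 1.5-fold higher in mgR than in WT SMCs. It stood at 34.0 CPM in WT (32.4 to 35.6), 62.1 in mgR (59.8 to 64.3) and 45.6 in mgR-LOS (44.0 to 47.2), a ratio of 1.83 for mgR over WT (1.72 to 1.94) and of 0.734 for mgR-LOS over mgR (0.698 to 0.772). *Cd44* differed with the modulated SMC list score, and stood at 89.2 CPM in mgR SMCs that scored for it and at 50.7 in those that did not. Without the scoring barcodes mgR over WT gave 1.54 (1.44 to 1.65). Within them *Cd44* stood at 89.4 CPM in WT, and the ratio of 0.998 (0.805 to 1.25) showed no difference beyond counting error. Of the 9 genes 5 reached 10 CPM in SMCs, 2 were higher (*Acan* and *Cd44*) and 0 lower in mgR, beside 5.11% of 7610 genes higher and 4.11% lower. The *Acan* rise was known when the genes were chosen, so this count is a description. Apart from *Acan*, only *Cd44* was called.

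*Vcan*, the other core, stood at 72.6 CPM in WT SMCs (70.3 to 74.9), 72.9 in mgR (70.5 to 75.4) and 56.3 in mgR-LOS (54.6 to 58.1). Over all SMCs its ratio of mgR over WT was 1.00 (0.959 to 1.05). In summed level no difference between these 2 libraries was thus seen beyond counting error. The mgR-LOS level was lower than that in mgR, at a ratio of 0.773 (0.738 to 0.809), within 1.5-fold. After thinning to 1000 UMIs these ratios were 1.37 and 0.657, the latter past 1.5-fold. A *Vcan* UMI was then held by 5.62% (4.90 to 6.42) of WT and 7.43% (6.53 to 8.40) of mgR SMCs. In SMCs scoring for the modulated list *Vcan* stood at 28.1 CPM in WT (18.7 to 40.7) and 61.4 in mgR (57.4 to 65.6). That WT value rests on 28 UMIs. In the other SMCs mgR over WT was 1.06 (1.01 to 1.11). The transcripts most like *Vcan* across mgR SMCs were *Ncam1* (0.23), *Mylk4* (0.18), *Wtip* (0.17), *Emb* (0.16) and *Sost* (0.16), none of them among the 5 named for *Acan*. *Acan* and *Vcan* themselves had correlations of 0.059 in WT, 0.12 in mgR and 0.095 in mgR-LOS SMCs.

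Of the proteases that reached 10 CPM in SMCs, *Adamts5* was the one past 1.5-fold over all SMCs, and it was so in mgR-LOS, against both mgR and WT. *Adamts5* encodes the chief aggrecanase of mouse cartilage. It stood at 52.8 CPM in WT (50.8 to 54.8), 66.2 in mgR (63.9 to 68.6) and 107 in mgR-LOS (104 to 109), with ratios of 1.61 for mgR-LOS over mgR (1.54 to 1.68) and 2.02 for mgR-LOS over WT (1.93 to 2.11). This ratio was 1.10 in the shallow, 1.57 in the middle and 1.83 in the deep SMCs, 1.45 when each barcode weighed equally and 1.29 after thinning, so its size moved with depth. *Adamts1*, the ADAMTS protease first described in inflammation, stood at 199.8, 283 and 242 CPM, with a ratio of 1.42 for mgR over WT (1.38 to 1.45). At like depth mgR over WT was past 1.5-fold for both in the shallow and middle SMCs, at 2.47 and 1.62 for *Adamts1* and 2.04 and 1.61 for *Adamts5*, and under it in the deep SMCs, at 1.32 and 1.13. *Adamts4* was scarce, at 1.2, 1.49 and 2.94 CPM, with a ratio of 1.97 for mgR-LOS over mgR (1.5 to 2.61). Immune-gated barcodes held it at 0.221 CPM in mgR and 0.189 in mgR-LOS. In WT they held 0 UMIs, which allows a level of up to 2.58 CPM. In mgR-LOS over mgR 1 gene of the 5 was higher (*Adamts5*) and 1 lower (*Acan*), beside 4.17% of 7650 genes higher and 3.44% lower.

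The synthases were near background in SMCs. *Has1* stood at 0.367 CPM in WT, 1.45 in mgR and 1.34 in mgR-LOS, at or below the range of 0 to 1.77 in immune-gated barcodes, and *Has2* at 0.0773, 0.189 and 0.0707. *Hapln1* stood at 0.851, 1.18 and 0.594 CPM in SMCs, so little link protein transcript was counted over the SMCs of any library, mgR included. The plot of levels by gate shows these genes at the bottom of the SMC panel.

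**Figure D2:**
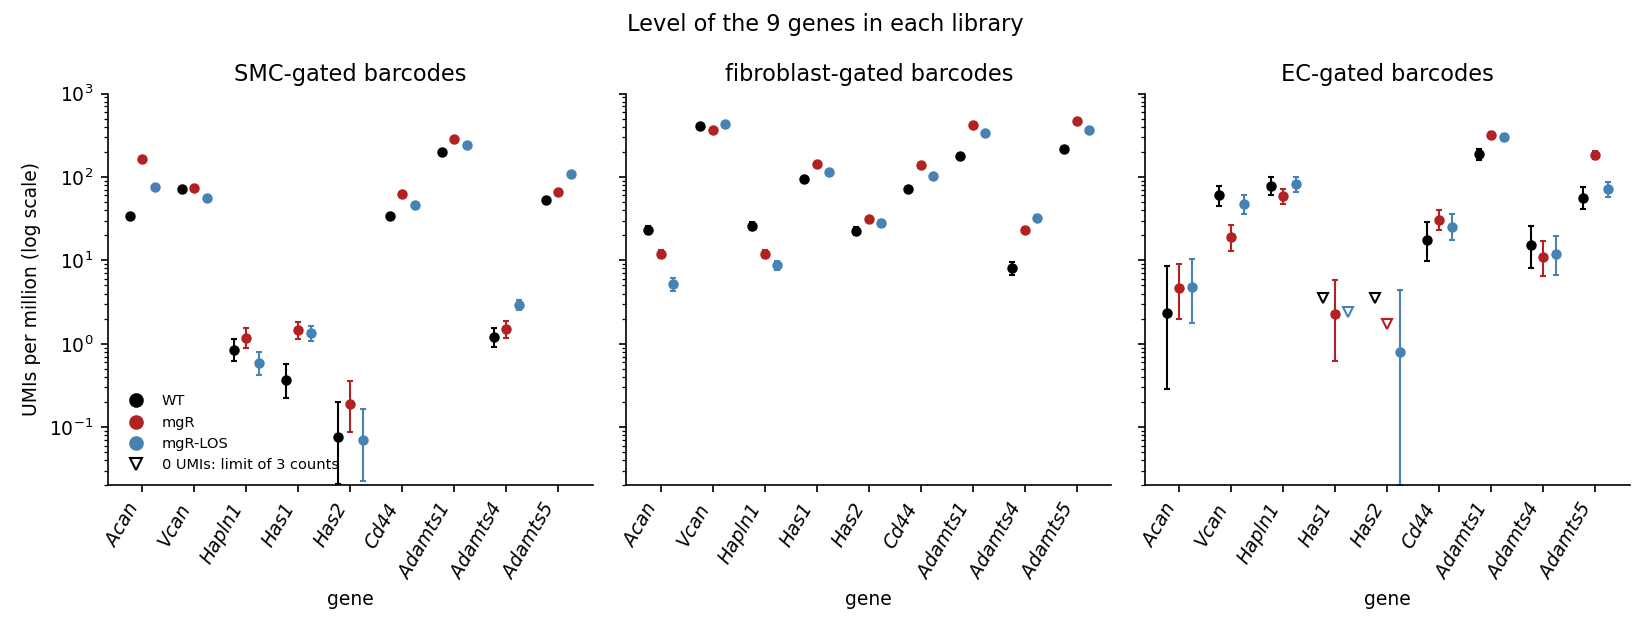
Level of each of the 9 genes in CPM on a log axis, in SMC-, fibroblast- and EC-gated barcodes, 1 point per library (WT, mgR, mgR-LOS) with its 95% Poisson interval; open triangles give the limit that 3 counts set where no UMI was counted. *Has1* and *Has2* reach 10 CPM in fibroblasts only, and of the 3 gates *Acan* is above 34 CPM only in SMCs.

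Fibroblasts carried the hyaluronan synthases. *Has1* stood at 95.6 CPM in WT fibroblasts (90.7 to 101), 143 in mgR (138 to 147) and 113 in mgR-LOS (109 to 117), and fibroblasts held 97.5%, 92.9% and 85.1% of all its UMIs. Set against WT, mgR gave a ratio of 1.49 (1.41 to 1.59), just short of 1.5-fold. *Has2*, the synthase required for heart development, stood at 22.4, 31.2 and 28.0 CPM, with a ratio of 1.39 (1.23 to 1.58), and fibroblasts held 98.5%, 95.6% and 91.5% of its UMIs. In EC *Has2* was seen in 0 of 109 WT and 0 of 216 mgR barcodes, with 1 UMI in mgR-LOS, and 0 counts allow a level of up to 3.52 and 1.72 CPM.

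*Has1* levels differed between sets of fibroblasts. A *Has1* UMI was seen in 16.9%, 26.6% and 19.1% of fibroblasts in WT, mgR and mgR-LOS. The upper 10%, ranked by *Has1* itself, held 92.5%, 80.4% and 88.3% of its UMIs. Such a share is high for any sparse transcript, and *Has2* gave 85.0%, 86.3% and 93.9%. Barcodes that scored for a list of adventitial fibroblast genes (*Pi16*, *Cd248*, *Dpp4*, *Ly6a* and *Sema3c*) were 37.8%, 37.6% and 33.7% of fibroblasts, and *Has1* stood at 259, 296 and 264 CPM in them against 16.9, 50.3 and 31.2 in the others. Between mgR and WT the ratio stood at 1.14 (1.07 to 1.22) inside the scoring set and 2.97 (2.52 to 3.52) outside it. *Has2* split the other way, with ratios of 2.07 (1.72 to 2.51) inside and 0.777 (0.647 to 0.934) outside. The transcripts most like *Has1* across 2414 mgR fibroblasts were *Gfpt2* (0.44), *Ugdh* (0.43), *Ly6c1* (0.40), *Uap1* (0.40) and *Adgrd1* (0.40). *Gfpt2*, *Uap1* and *Ugdh* encode enzymes of the paths to the UDP-sugars from which hyaluronan is made, and *Ugdh*, which makes UDP-glucuronic acid, stood at 236, 454 and 478 CPM. In the other libraries the correlations stood at 0.42 for *Gfpt2* and *Ugdh* in WT and 0.39 for both in mgR-LOS.

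All 3 proteases and *Cd44* were higher in mgR than in WT fibroblasts. *Adamts5* stood at 217 CPM in WT (210.0 to 225), 468 in mgR (461 to 476) and 363 in mgR-LOS (356 to 371), a ratio of 2.15 for mgR over WT (2.07 to 2.24). *Adamts1* stood at 179, 417 and 338 CPM, a ratio of 2.33 (2.24 to 2.44). *Adamts4*, the inducible aggrecanase, stood at 8.0 CPM in WT (6.62 to 9.57), 23.4 in mgR (21.7 to 25.2) and 32.3 in mgR-LOS (30.1 to 34.6). Of these 3 proteases it was the one whose level in mgR-LOS lay above that in mgR, by 1.38-fold (1.25 to 1.53). *Cd44* stood at 71.5, 138 and 103 CPM, a ratio of 1.93 (1.80 to 2.07). The WT level was the lowest of the 3 for each of these 4 genes.

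The ratios of the proteases differed between the sets of fibroblasts. Outside the *Pi16* list *Adamts4* was 5.46-fold higher in mgR than in WT (4.15 to 7.32) and *Adamts1* 3.03-fold (2.87 to 3.19), whereas inside it their ratios were 0.903 (0.665 to 1.24) and 1.37 (1.28 to 1.47). *Adamts5* was higher in both sets, by 2.06-fold (1.96 to 2.16) inside and 1.97-fold (1.85 to 2.09) outside, and stood at 829 CPM in mgR fibroblasts that scored for the list against 252 in the others. *Cd44* was 3.1-fold higher inside (2.66 to 3.62) and 1.69-fold outside (1.57 to 1.83). Immediate early genes, which tissue digestion is known to induce, summed to 14302, 15187 and 16975 CPM in fibroblasts, and their part in the *Adamts1* values was not tested.

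*Vcan* was carried mainly by fibroblasts, which held 60.4%, 71.8% and 67.0% of its UMIs, and it stood there at 403 CPM in WT (393 to 413), 367 in mgR (360.2 to 374) and 432 in mgR-LOS (424 to 441). Its ratios were 0.910 for mgR over WT (0.882 to 0.939) and 1.18 for mgR-LOS over mgR (1.15 to 1.21), both within 1.5-fold. Fibroblasts that scored for the *Pi16* list went the other way from the rest, at 283 CPM in WT and 411 in mgR against 461 and 341 outside it. Across single fibroblasts *Vcan* varied with *Has2*, with correlations of 0.32 in WT, 0.41 in mgR and 0.31 in mgR-LOS.

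*Acan* and *Hapln1* were lower in mutant fibroblasts. *Acan* stood at 23.2 CPM in WT (20.8 to 25.8), 12.0 in mgR (10.8 to 13.3) and 5.15 in mgR-LOS (4.31 to 6.11), with ratios of 0.519 for mgR over WT (0.447 to 0.603) and 0.428 for mgR-LOS over mgR (0.348 to 0.524). *Hapln1* stood at 25.9 CPM in WT (23.4 to 28.7), 12.0 in mgR (10.8 to 13.3) and 8.70 in mgR-LOS (7.60 to 9.92), a ratio of 0.463 for mgR over WT (0.400 to 0.535). By depth the *Acan* ratio of mgR over WT was 0.399 (0.259 to 0.613) in the middle and 0.472 (0.400 to 0.557) in the deep fibroblasts, but 6.26 (1.92 to 32.3) in the shallow ones, where WT had 3 *Acan* UMIs. For mgR-LOS over mgR it was 0.212 in the shallow, 1.01 (0.666 to 1.54) in the middle and 0.531 in the deep fibroblasts, so no difference was seen in the middle ones. A list of fibrous tissue and valve genes (*Comp*, *Chad*, *Fmod*, *Thbs4* and *Tnmd*) was also lower in mgR, at 1987 CPM in WT fibroblasts and 678 in mgR. It was no lower in mgR-LOS, at 681. *Comp* and *Chad* are in the osteochondral list too. From that list *Sox9* stood at 172, 119.9 and 164 CPM in fibroblasts, *Col2a1* at 9.74, 43.1 and 1.09 and *Col11a1* at 44.0, 50.1 and 15.8. Whether these lay in barcodes that scored for the *Comp* list was not tested. Barcodes that scored for the *Comp* list were 15.8% (13.9 to 17.9), 6.79% (5.82 to 7.87) and 5.69% (4.90 to 6.57) of fibroblasts.

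Most fibroblast *Acan* lay in those barcodes, at 304 of 345 UMIs in WT, 256 of 365 in mgR and 80 of 132 in mgR-LOS. In fibroblasts that scored for the *Comp* list *Acan* stood at 97.7 CPM in WT, 113 in mgR and 47.6 in mgR-LOS, and in the others at 3.48, 3.88 and 2.17. Within the scoring set mgR over WT gave 1.16 (0.978 to 1.37), and among the others it was 1.11 (0.772 to 1.64), so the lower level in mgR was not seen within either set. The lower level in mgR-LOS remained within the scoring set, at a ratio of 0.420 (0.323 to 0.542). *Hapln1* behaved differently, with a ratio of mgR over WT of 1.55 (1.28 to 1.88) inside the set and of 0.309 (0.245 to 0.388) outside it. *Acan* and *Hapln1* correlated across fibroblasts at 0.25 in WT, 0.42 in mgR and 0.15 in mgR-LOS.

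**Figure D3:**
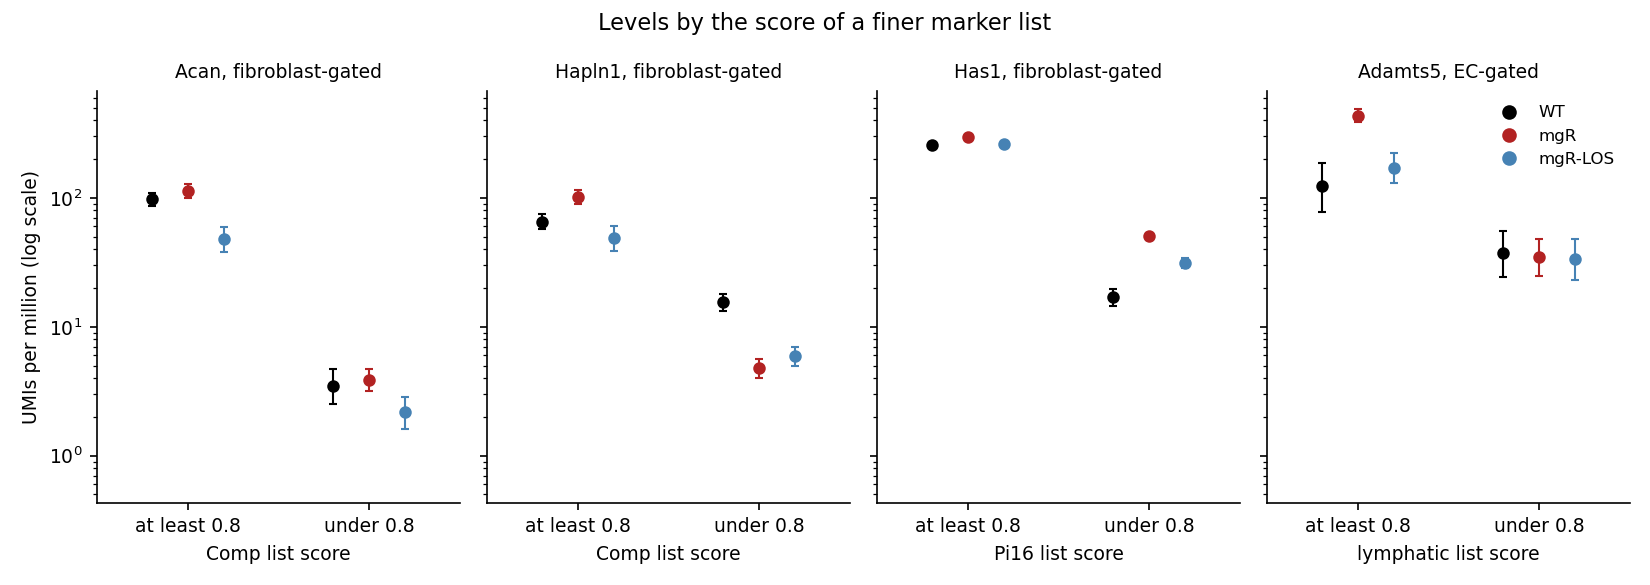
Levels in CPM on a log axis of *Acan* and *Hapln1* (fibroblasts by *Comp* list score), *Has1* (fibroblasts by *Pi16* list score) and *Adamts5* (EC by lymphatic list score), 1 point per library with its 95% Poisson interval, at scores of at least 0.8 or under 0.8. *Acan* in fibroblasts is near 100 CPM in the WT and mgR scoring sets and under 4 in the others, and *Adamts5* in mgR stands above the other libraries in EC that score for the lymphatic list, while the intervals of the 3 libraries overlap in the other EC.

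All 9 genes reached 10 CPM in fibroblasts, and in mgR over WT 4 were higher and 2 lower, beside 6.61% of 8440 genes higher and 4.21% lower. In mgR-LOS over mgR 0 were higher and 1 was lower (*Acan*), beside 3.47% of 8394 genes higher and 3.54% lower. Over all fibroblasts the levels of *Has1*, *Has2*, *Cd44*, *Adamts1* and *Adamts5* in mgR-LOS lay between those of WT and mgR, but 1493 of the 3091 mgR-LOS fibroblasts had at most 7976 UMIs, against 438 of 2414 in mgR. Among deep fibroblasts, above 12203 UMIs, the level in mgR-LOS was not below that in mgR for *Adamts5* (ratio 1.01, 0.967 to 1.05) or *Has2* (1.18, 1.02 to 1.35), and the ratio was 0.975 (0.908 to 1.05) for *Has1*. It was 0.889 for *Cd44* and 0.883 for *Adamts1*. The deep set held 456 mgR-LOS barcodes. In the shallow and middle fibroblasts the ratio was 0.626 (0.580 to 0.676) and 0.809 (0.772 to 0.848) for *Adamts5*. For *Has1* it was 0.611 (0.532 to 0.702) and 0.984 (0.901 to 1.08). *Cd44* gave 0.790 and 0.988, *Adamts1* 0.843 and 0.796, and *Has2* 1.30 and 0.998, so the ratios differed with depth.

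EC values rest on 109, 216 and 172 barcodes and their intervals are wide. *Adamts5* stood at 56.3 CPM in WT EC (41.5 to 74.7), 184 in mgR (165 to 206) and 70.7 in mgR-LOS (56.8 to 87.1), so mgR alone stood high, with ratios of 3.27 for mgR over WT (2.41 to 4.53) and 0.383 for mgR-LOS over mgR (0.300 to 0.486). Lymphatic EC genes (*Prox1*, *Lyve1*, *Flt4* and *Mmrn1*) moved the same way, at 1218, 2519 and 1268 CPM. Barcodes that scored for the lymphatic list were 22% (14.6 to 31.0), 33.3% (27.1 to 40.0) and 26.7% (20.3 to 34.0) of EC, shares whose intervals overlap. In them *Adamts5* stood at 123, 434 and 172 CPM, and in the other EC at 37.6, 35.0 and 33.7. Set against WT, mgR gave a ratio of 3.51 (2.29 to 5.63) inside the lymphatic set of 24 WT and 72 mgR barcodes and 0.931 (0.547 to 1.61) outside it. A capillary list (*Cd36*, *Gpihbp1*, *Rgcc*, *Fabp4* and *Kdr*) divided *Adamts5* as well, with ratios of 7.79 (4.02 to 17.3) inside and 1.81 (1.26 to 2.67) outside. Of the 195 *Adamts5* UMIs in mgR EC that scored for the capillary list, 189 lay in the 38 barcodes that scored for both lists. In barcodes that scored for both the ratio was 6.91 (3.29 to 17.4), for the lymphatic list alone 1.87 (1.09 to 3.41) and for the capillary list alone 1.47 (0.263 to 14.9), the last on 2 WT and 6 mgR UMIs. Over all EC the highest single barcode held 11, 30 and 16 of 48, 321 and 89 *Adamts5* UMIs, a spread that the intervals do not cover. After thinning, 6.42% (2.62 to 12.8), 10.7% (6.90 to 15.6) and 4.65% (2.03 to 8.96) of EC held an *Adamts5* UMI, shares whose intervals overlap. *Adamts1* stood at 187, 314 and 297 CPM in all EC, a ratio of 1.68 for mgR over WT (1.41 to 2.02). It was higher in mgR both inside and outside the lymphatic set, by 3.89-fold (2.26 to 7.26) and 1.5-fold (1.24 to 1.84).

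*Vcan* in EC stood at 59.9 CPM in WT (44.6 to 78.7), 19.0 in mgR (13.1 to 26.6) and 47.7 in mgR-LOS (36.4 to 61.4), on 51, 33 and 60 UMIs. The highest single barcode held 19, 7 and 6 of them, a spread that the intervals do not cover. The ratio was 0.317 for mgR over WT (0.198 to 0.501) and 2.51 for mgR-LOS over mgR (1.62 to 3.97). After thinning the first was 1.01, but only 2 WT and 4 mgR barcodes then held a *Vcan* UMI, too few to compare. The fibroblast panel gene *Dcn* moved the same way in EC, at 1369, 815 and 1953 CPM, and its part in the *Vcan* values was not tested. *Cd44* stood at 17.6, 30.5 and 25.4 CPM, and its ratio of 1.73 for mgR over WT had an interval of 0.961 to 3.30 that includes 1.

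*Hapln1* in EC stood at 77.5 CPM in WT (59.9 to 98.6), 58.6 in mgR (47.8 to 71.2) and 81.9 in mgR-LOS (66.8 to 99.3), and came from a handful of barcodes. The highest single barcode held 30, 33 and 35 UMIs of the 66, 102 and 103 counted. A *Hapln1* UMI was seen in 12, 10 and 14 EC. The upper 10% of EC, ranked by *Hapln1* itself, therefore had to hold nearly all, at 98.5%, 100% and 100%. The transcript most like it was *Cdh11*, a mesenchymal cadherin, with correlations of 0.51, 0.61 and 0.60 over 109, 216 and 172 barcodes, and in mgR *Dcn* (0.37), *Crip1* (0.33), *Jpt1* (0.32) and *Postn* (0.31) came next. After thinning, 3, 5 and 7 EC barcodes carried *Hapln1*, and *Vcan* stood at 169.6, 223 and 194 CPM in them against 55.1, 11.9 and 40.8 in the rest. *Acan* was at 2.35 to 4.77 CPM in EC, near the 0 to 3.59 of immune-gated barcodes.

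Of the 9 genes 6 reached 10 CPM in EC, and in mgR over WT 3 were higher (*Cd44*, *Adamts1* and *Adamts5*) and 1 lower (*Vcan*), beside 13.7% of 8939 genes higher and 9.18% lower. With lower gate thresholds the ratios of *Cd44*, *Adamts1* and *Adamts5* fell under 1.5-fold. In mgR-LOS over mgR 1 was higher (*Vcan*) and 1 lower (*Adamts5*), beside 10.1% of 8923 genes higher and 10.4% lower. These shares of all genes are higher in EC, the gate with the fewest UMIs, than in the other gates, and the counts of the 9 genes are to be read against them.

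**Figure D4:**
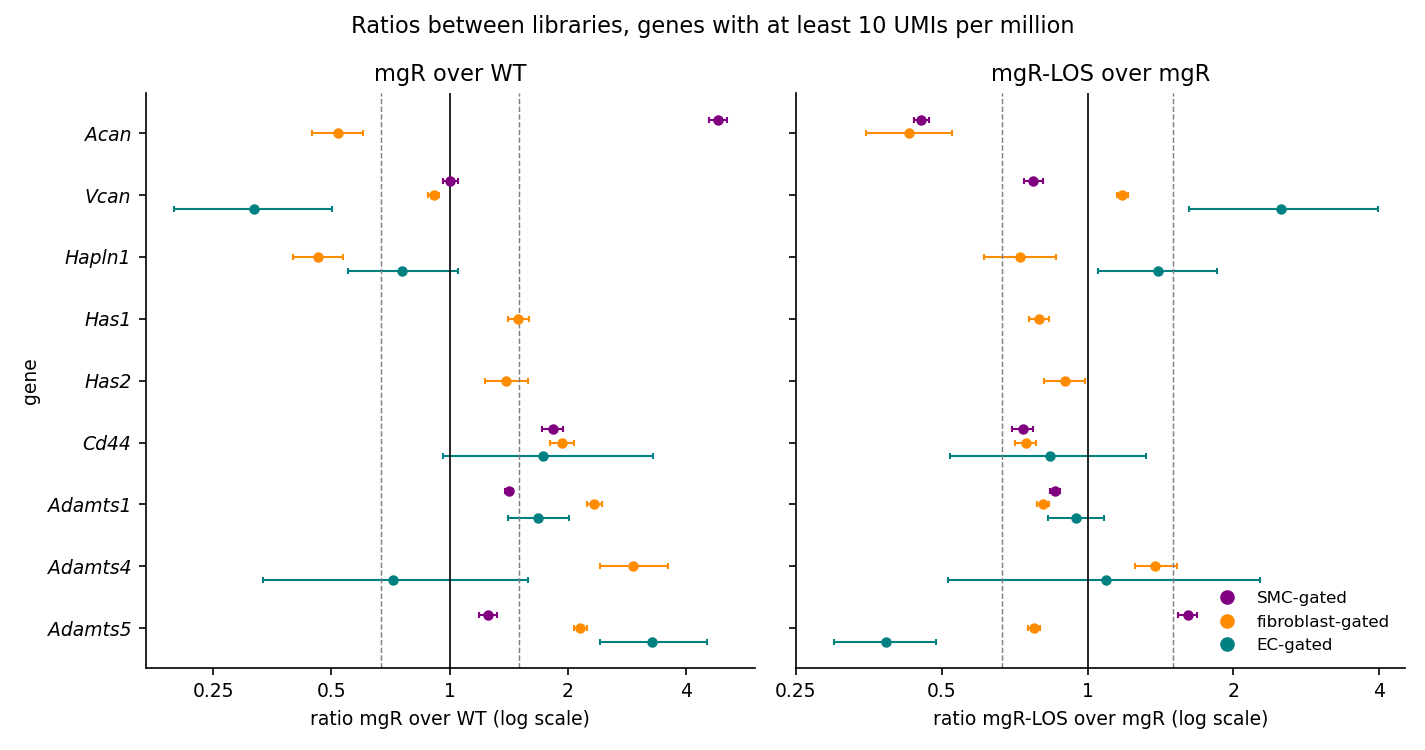
Ratios of levels between libraries on a log axis, mgR over WT on the left and mgR-LOS over mgR on the right, for the genes that reach 10 CPM in either library, 1 point per gate with its 95% interval from counting error; the solid line marks 1 and the dashed lines 1.5-fold. *Acan* lies at 4.83 in SMCs and 0.519 in fibroblasts on the left and under 0.5 in both on the right.

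The other genes of the pathway were counted in 4 lists. The remaining aggregating cores and link proteins (*Ncan*, *Bcan*, *Hapln2*, *Hapln3* and *Hapln4*) stayed under 10 CPM in all gates, 0 of 5 counted. Of 17 genes that make, bind or degrade hyaluronan, 7 were counted in SMCs, with 1 higher and 2 lower in mgR than in WT, beside 5.11% and 4.11% of all genes. *Layn*, which encodes the hyaluronan receptor layilin, was higher, at 12.1 CPM in WT, 21.9 in mgR and 13.4 in mgR-LOS, which follows the order of *Acan*. *Hyal1*, a hyaluronidase, and *Tnfaip6*, whose product links hyaluronan to inter-alpha-inhibitor heavy chains, were lower in mgR SMCs, at ratios of 0.628 (0.554 to 0.710) and 0.361 (0.317 to 0.411). In mgR-LOS over mgR 2 of 6 were lower, beside 3.44% of all genes, *Layn* at 0.612 (0.560 to 0.669) and the heavy chain gene *Itih2* at 0.656 (0.617 to 0.697).

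In fibroblasts 3 of 8 counted hyaluronan genes were higher in mgR than in WT and 0 lower, beside 6.61% and 4.21% of all genes. They were *Ugdh* at 1.92 (1.85 to 1.99), *Tnfaip6* at 1.74 (1.67 to 1.81) and *Ptx3*, the pentraxin that stabilizes hyaluronan matrix, at 1.71 (1.62 to 1.81). All 3 stayed near the mgR level in mgR-LOS, at ratios of 1.05, 1.00 and 0.982. The heavy chain gene *Itih5* was the one of 8 that was higher in mgR-LOS than in mgR, at 1.71 (1.66 to 1.77), beside 3.47% of all genes. In EC 4 of 10 were higher and 3 lower in mgR, beside 13.7% and 9.18%. Among those higher was the lymphatic hyaluronan receptor *Lyve1* at 1.91 (1.71 to 2.15), which also belongs to the lymphatic list. The others were *Ptx3* at 3.25 (1.95 to 5.78), *Cemip2* at 1.89 (1.47 to 2.46) and *Stab1* at 1.56 (1.32 to 1.84). Those lower were *Itih5* at 0.430 (0.309 to 0.597), *Hyal1* at 0.401 (0.147 to 1.06) and *Hmmr* at 0.539 (0.208 to 1.41). The intervals of *Hyal1* and *Hmmr* included 1.

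Of 7 further proteases and inhibitors, 5 were counted in SMCs and 2 were higher and 0 lower in mgR than in WT, beside 5.11% and 4.11% of all genes. *Adamts8* stood at 13.9 CPM in WT, 24.4 in mgR and 11.6 in mgR-LOS, and *Mmp3*, stromelysin 1, at 1.18, 15.3 and 10.9. In mgR-LOS over mgR 1 of 5 was higher, *Adamts15* at 1.67 (1.47 to 1.90). Another 1 was lower, *Adamts8* at 0.476 (0.435 to 0.521), beside 4.17% of all genes higher and 3.44% lower. In fibroblasts 3 of 5 were higher, beside 6.61% of all genes. They were *Mmp3* at 3.29 (3.12 to 3.46), *Adamts9* at 2.05 (1.72 to 2.45) and *Adamts15* at 1.74 (1.58 to 1.93). In mgR-LOS over mgR 1 of 4 was lower there, *Adamts15* at 0.577 (0.531 to 0.628), beside 3.54% of all genes. In EC 2 of 3 were higher in mgR, beside 13.7% of all genes, *Adamts8* at 4.16 (1.48 to 16.1) and *Adamts9* at 2.79 (1.78 to 4.55). Both were lower in mgR-LOS than in mgR EC, at 0.203 (0.0621 to 0.523) and 0.623 (0.450 to 0.853), beside 10.4%. *Timp3*, the inhibitor of the aggrecanases, stood at 814, 836 and 835 CPM in SMCs, and its ratio of 1.03 for mgR over WT had an interval of 1.01 to 1.04. In fibroblasts *Timp3* stood at 2709, 2932 and 2311 CPM, within 1.5-fold.

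The last list held 20 genes that build and sulfate chondroitin chains. Of 12 counted in SMCs, 0 were higher and 0 lower in mgR than in WT, beside 5.11% and 4.11% of all genes, so few calls among 12 would match the share over all genes. The chain polymerization genes *Chpf* (1.43, 1.36 to 1.51) and *Chsy1* (1.31, 1.25 to 1.38) and the epimerase gene *Dse* (1.45, 1.36 to 1.56) had ratios above 1 but under 1.5. In mgR-LOS over mgR 1 of 11 was lower, beside 3.44% of all genes, namely *Chsy1* at 0.630 (0.600 to 0.661). In fibroblasts, beside 6.61% higher and 4.21% lower over all genes, 1 of 13 was higher in mgR, the sulfotransferase gene *Chst15* at 3.22 (2.50 to 4.21), and 1 was lower, the chain-initiating xylosyltransferase gene *Xylt1* at 0.604 (0.529 to 0.689).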

How the data were processed

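Ascending aortas of pooled mice were measured with the Chromium 3′ v3.1 kit in 3 libraries. The deposited values are raw UMI counts, one matrix of genes by barcodes for each library, which the authors made on GRCm38 and did not normalize. The file headers name CellRanger 5.0.1 for WT and mgR and 6.0.1 for mgR-LOS, whereas the submitters' processing notes give Cell Ranger 6.0.1. Version differences can change which reads and barcodes are counted and cannot be told apart from the losartan group.

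A barcode entered a gate where the mean of ln(1 + UMIs per 10000) over a panel reached 2.4 (SMC), 1.2 (fibroblast) or 0.8 (EC, immune, Schwann, mesothelial); thresholds were set after the panel scores were seen. Barcodes over several thresholds (81, 391 and 611) were left out. SMCs were gated on *Tpm2*, *Myl9*, *Cnn1*, *Tagln*, *Myh11* and *Acta2*. The other panels were *Dpt*, *Clec3b*, *Serpinf1*, *Pdgfra*, *Dcn* and *Lum* (fibroblast), *Pecam1*, *Cdh5*, *Egfl7*, *Tie1*, *Cldn5* and *Ecscr* (EC), and *Ptprc*, *Cd52*, *Laptm5*, *Tyrobp*, *Coro1a* and *Cd53* (immune). Finer lists were scored in the same way at 0.8, chosen after the values had been seen. *Ccl21a* occurs more than once in the files and was left out of the lymphatic list.

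Counts were summed per gate and library and scaled to CPM. Intervals at 95% are exact Poisson for levels, exact conditional binomial for ratios and Clopper-Pearson for shares. Where 0 were counted, the level or share said to be allowed is that of 3 counts. The upper end of the 95% interval lies above it, at 2.72% for *Acan* in thinned WT immune-gated barcodes. Because UMIs count 3′ ends, levels were not divided by gene length and were not compared between genes. With 1 library per group no test was run. Ratios and intervals were tested on simulated data. Doublets were scored with artificial neighbors, called and kept. Python 3.11.15, numpy 2.4.6, scipy 1.17.1, pandas 2.3.3, scikit-learn 1.9.0 and matplotlib 3.10.9 were used. Alternatives changed filters, gates, scaling, weighting and thinning.

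The genes, lists and comparisons were chosen with earlier results of these data known. The text names the 9 genes, the 5 transcripts most correlated with *Acan*, *Vcan*, *Has1* and *Hapln1* among those of at least 50 CPM, and the genes of the marker lists. Of the 4 pathway lists it names some of the genes past 1.5-fold or with the highest levels, and not every call, above all in EC. *Chpf*, *Chsy1*, *Dse* and *Timp3* ratios within 1.5-fold were picked after their values had been seen.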

Additional observations from a re-analysis of the deposited data

Results flagged for a closer look

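*Acan* and *Adamts5* each differed past 1.5-fold in opposite directions in 2 gates under the same comparison. For mgR over WT, *Acan* had a ratio of 4.83 in SMCs and 0.519 in fibroblasts. For mgR-LOS over mgR, *Adamts5* had a ratio of 1.61 in SMCs and 0.383 in EC. With 1 library per group the difference between gates was not tested. From WT to mgR the fibroblast *Acan* value moved with the share of barcodes that score for the *Comp* list. For *Adamts5*, mgR-LOS over mgR was still 0.396 (0.293 to 0.527) within EC that scored for the lymphatic list, and 0.964 (0.580 to 1.59) in the other EC.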

How the results depend on the processing

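The ratios of *Acan* in SMCs stayed past 1.5-fold in the same direction under all alternatives run, from 4.63 to 5.16 for mgR over WT (5.16 at a mitochondrial limit of 5%) and from 0.443 to 0.463 for mgR-LOS over mgR. Of 17 ratios past 1.5-fold, 10 stayed past it under every alternative and 14 kept their direction. The exceptions in direction were *Acan* for mgR over WT in fibroblasts without those that score for the *Comp* list (1.11), *Adamts5* for mgR over WT in EC without those that score for the lymphatic list (0.931), and *Vcan* for mgR over WT in EC after thinning to 1000 UMIs (1.01). The thinned *Vcan* value rests on 2 WT and 4 mgR barcodes with a UMI. The leaving out of list-scoring barcodes was chosen after seeing the data.

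The counts of genes past 1.5-fold moved as follows. In SMCs, mgR over WT went from 2 to 1 at 2-fold and to 4 with no filter on low values, and mgR-LOS over mgR from 2 to 1 at 2-fold and with each barcode weighted equally, and to 5 with no filter. In fibroblasts, mgR over WT went from 6 to 3 at a minimum of 50 CPM, and mgR-LOS over mgR from 1 to 0 at that minimum, at a mitochondrial limit of 5% and without the *Comp* list barcodes. That gene was *Acan*, whose ratio stayed past 1.5-fold in each (0.472 at the 5% limit and 0.559 without the *Comp* list barcodes), and which fell under the minimum CPM. In EC, mgR over WT went from 4 to 2 at 2-fold, and mgR-LOS over mgR from 2 to 1 at 50 CPM and without the lymphatic barcodes, and to 4 after thinning. Fewer genes pass a higher fold or minimum by construction; otherwise the cause was not tested. No paired analysis was possible because each group has 1 library. EC values rest on few barcodes and UMIs, and no difference between libraries has a replicate check.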

Other observations

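Immune-gated barcodes, in which CD44 is the standing hyaluronan receptor of leukocytes, held *Cd44* at 258 CPM in WT (229.8 to 289), 271 in mgR (263 to 280.3) and 256 in mgR-LOS (243 to 270.4), levels whose intervals overlap, whereas *Cd44* differed between the same libraries in SMCs and fibroblasts. Since immune-gated barcodes numbered 134, 1673 and 764, they held 9.28%, 31.3% and 16.8% of all *Cd44* UMIs of the kept barcodes. *Vcan* in immune-gated barcodes stood at 2.58 CPM in WT on 3 UMIs, 17.9 in mgR (15.7 to 20.3) and 5.68 in mgR-LOS (3.83 to 8.10).

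Within mgR SMCs, barcodes with an *Acan* UMI after thinning (430 of 3124) held the fibroblast panel at 61.8 CPM against 168 in the rest, and *Adamts5* at 53.1 against 68.3 CPM. In WT the panel stood at 43.6 against 126 CPM. The median UMI counts of the barcodes with and without *Acan* were 15123 and 15176 in mgR.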
